A study of Rattus norvegicus with 12 samples.

Results

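Kidney transcripts of lean rats that had eaten rosiglitazone were compared with those of lean rats on the same chow without the drug. The comparison took 6 of the 12 arrays of the series, 3 with rosiglitazone and 3 without, chosen by the titles of the samples, and 31042 of the 31099 probe sets on the array, all but the manufacturer's own controls. The lean rosiglitazone group was male lean Zucker rats given rosiglitazone in ground chow over 12 weeks, at a dose of 3 mg/kg body weight, and the lean control group was male lean Zucker rats fed ground chow alone for the same time. The other 6 arrays came from male obese Zucker rats, 3 fed the drug at that dose and 3 fed chow alone, and entered the fit as further groups. The 12 arrays stand for 12 rats, food and water were free, and the labels call the animals a model for diabetes. Obese Zucker rats carry a mutation of the leptin receptor, and lean Zucker rats are not obese. The age of the rats, the part of the kidney taken and the trimming of fat around it are not given in the labels.

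Rosiglitazone is a thiazolidinedione, a drug that binds and activates PPARgamma. This nuclear receptor pairs with a retinoid X receptor, sits on DNA repeats of the motif AGGTCA, and switches on genes for the uptake, storage and handling of fatty acids, above all in fat cells. In the kidney PPARgamma is found mainly in the collecting duct and in vascular cells, and thiazolidinediones are known for fluid retention, which has been tied to sodium transport in the distal nephron. Values below are MAS5 signals, the scanner intensity of a probe set on a linear scale after scaling of each array. Changes are differences of log2(signal + 16), rosiglitazone minus control, from limma with all 12 arrays in 1 fit. A probe set was called at a Benjamini-Hochberg adjusted p under 0.05 over the 18625 probe sets bright enough to be tested. Groups are said not to overlap when all 3 arrays of one lay above all 3 of the other.

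The 6 lean arrays were alike in median signal and in the Gapdh ratio. Their median signals lay between 204 and 239, and the Gapdh ratios (3' over 5' probe set, which tracks RNA integrity) between 1.14 and 1.22 on the rosiglitazone arrays and between 1.15 and 1.32 on the control arrays. The same kind of ratio for hexokinase spread more, with 2.06, 1.80 and 2.87 on the rosiglitazone arrays and 2.21, 2.95 and 2.30 on the control arrays. Array 3 of the rosiglitazone group stood apart, with a score of −35.64 on the second principal component of all 12 arrays, where the other arrays had −13.39 to 17.80. It also had the lowest weight of the 12 (0.496) when arrays were weighted by their fit. Arrays 1 and 2 of each lean group had a higher signal of the cre hybridization spike-in (19916 to 21951) than array 3 of each (15069 and 16181), so this technical class was balanced between the groups. Markers of kidney cells were bright. Aqp1, the water channel gene of the proximal tubule, gave 15924, 15723 and 14910.4 on the rosiglitazone arrays and 17224, 15934 and 13481 on the control arrays. Aqp2, the water channel gene of the collecting duct, gave 9919.5, 12939.9 and 10872 on the rosiglitazone arrays and 12721, 11374 and 12060.2 on the control arrays. Of the 15 bacterial control probe sets, which match no rat transcript, the brightest gave 115.7 on any array, and a signal below that is said to be at background.

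Inmt rose in the kidneys of lean rats on rosiglitazone and was the 1 probe set called, 0.00537% of those tested. Inmt encodes indolethylamine N-methyltransferase, which adds methyl groups from S-adenosylmethionine to tryptamine and related amines. Its signals were 5189, 5403 and 5309 on the 3 rosiglitazone arrays and 1936, 2389 and 1747 on the 3 control arrays. The lowest rosiglitazone signal was 2.17 times the highest control signal, and the rats on the drug lay close together. The mean was 5300.5 ± 107 on rosiglitazone and 2024 ± 329.8 on control chow (SD, n = 3 each), a 2.63-fold difference (log2 change 1.39, SE 0.11, 95% interval 1.16 to 1.63, limma adjusted p = 6.5e-05). The array has 1 probe set for the gene, so no second measurement was at hand. Of the other genes of methyl transfer and amine metabolism, 24 were bright enough to be tested, 0 were called, and all 24 had a 95% interval within 2-fold either way. Gnmt, the glycine methyltransferase of liver and kidney, had a log2 change of −0.31 (adjusted p = 0.981).

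Inmt was called in 19 of 20 alternative analyses, with log2 changes of 1.29 to 1.59. The exception was the comparison within the higher spike-in class, 2 arrays against 2, where the adjusted p was 0.134 and 0 probe sets were called (limma, 713 at an unadjusted p under 0.05). The comparison within the lower class set 1 lean array against 1. All 20 analyses reused the same arrays, so they are not independent of each other. Leaving out 1 lean array at a time gave 2 to 4 called probe sets, Inmt among them each time. The added calls were Retsat without control 1, both probe sets of Car3 and an unnamed one without control 2, an unnamed one without control 3, Pea15 without rosiglitazone 1, Ces1d without rosiglitazone 2, and Nrxn2 without rosiglitazone 3. Retsat and Pea15 are named here because of these calls and are not described further.

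**Figure D1:**
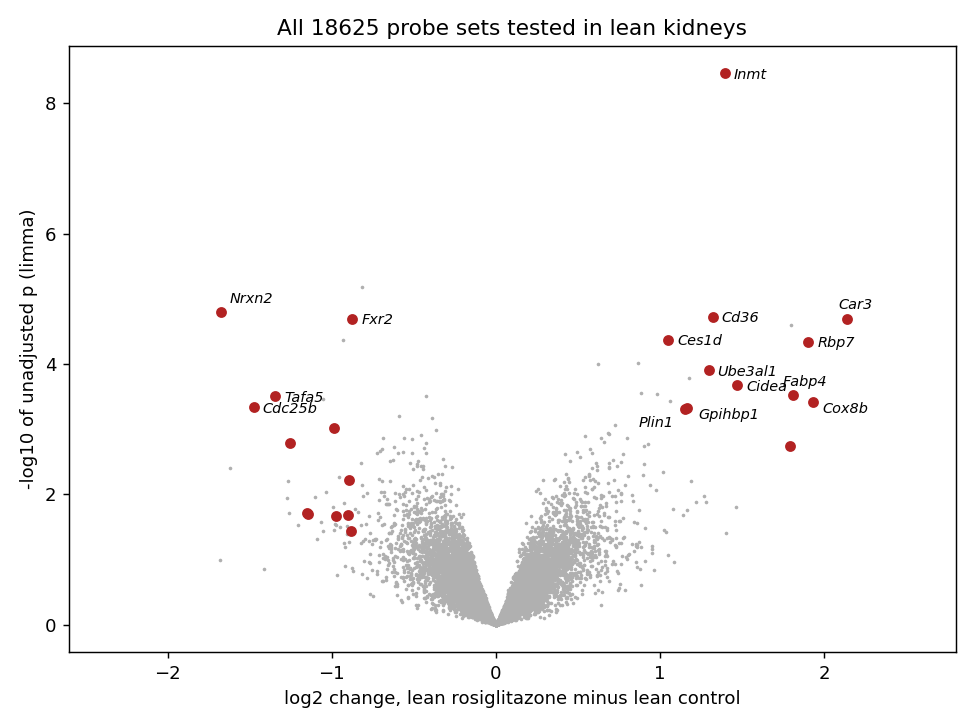
Each point is 1 of the 18625 probe sets tested in lean kidneys, with its log2 change (rosiglitazone minus control) on the horizontal axis and the −log10 of its unadjusted limma p on the vertical axis, and the named genes of highest and lowest change in red. Inmt stands alone at the top, and the named genes to the right of 1 and to the left of −0.87 did not pass the adjusted threshold, apart from Inmt.

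Below Inmt, 9 further probe sets had an adjusted p between 0.05 and 0.1, and in all 10 of 18625 (0.0537%) lay under 0.1. They belonged to 7 named genes (Inmt, Nrxn2, Cd36, Car3 with its 2 probe sets, Fxr2, Ces1d and Rbp7) and to 2 unnamed probe sets. At an unadjusted p under 0.05 there were 893 probe sets (4.79%), 447 higher (2.4%) and 446 lower (2.39%) on the drug. Groups did not overlap at 1590 probe sets (8.54%), 763 higher (4.1%) and 827 lower (4.44%). With no difference between the groups, a share of about 0.05 would lie under that p and about 0.1 would not overlap. Neither count is above that share, so neither is read as a number of changed probe sets. Those that did not overlap and differed by at least 2-fold were 19 higher (0.102%) and 10 lower (0.0537%). The genes described next were taken by a rule on exactly such values (an unadjusted p under 0.05, no overlap, and the largest changes), so their size and separation are a description, and apart from Inmt none of them passed the test.

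The 12 named genes of highest change included 3 that handle fatty acids at the cell surface or inside the cell. Cd36, the fatty acid translocase of the cell membrane and a known PPARgamma target, had signals of 1030.3, 1034 and 718 on rosiglitazone and 469, 259.6 and 372 on control chow (log2 change 1.32, SE 0.21, adjusted p = 0.0635). Fabp4, which carries fatty acids inside fat cells and macrophages, had 4343, 7256 and 3864 on rosiglitazone and 1068, 1065 and 2408 on control chow (log2 change 1.81, SE 0.37, adjusted p = 0.293). In both genes every rat on the drug lay above every control rat, and for Fabp4 array 2 of the drug group stood well above the other two. Gpihbp1, which holds lipoprotein lipase on the capillary wall, had 190.0, 331 and 285 on rosiglitazone against 76.4, 109 and 148 on control chow (log2 change 1.17, SE 0.26, adjusted p = 0.354), with control arrays 1 and 2 at background. Of 22 tested genes in the whole list of fatty acid uptake and lipolysis, 15 had a higher mean, 5 were higher and 1 was lower with no overlap, 0 were called, and the median was 0.07, or −0.02 without control array 2 and 0.17 without rosiglitazone array 3. Of the 10524 tested genes, each at its brightest probe set, 46.7% had a higher mean, 3.31% were higher with no overlap and 5.05% were lower with no overlap.

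Plin1 and Cidea encode lipid droplet proteins. Plin1, perilipin 1, which coats the droplet and gates its lipases, had 799, 1696 and 1095 on rosiglitazone and 528, 392 and 619 on control chow (log2 change 1.15, SE 0.25, adjusted p = 0.356). A second probe set of Plin1 gave 0.29, so its probe sets did not give 1 answer. Cidea, a droplet protein of brown fat, had 1345, 3069.9 and 1291 on rosiglitazone and 679.5, 459.7 and 764 on control chow (log2 change 1.47, SE 0.29, adjusted p = 0.264). For both genes array 2 of the drug group was the highest, and control array 2 was the lowest of the controls. Plin2, another droplet coat gene, had −0.14 at its bright probe set, with overlap.

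Genes of brown fat itself varied widely between rats. Ucp1, the uncoupling protein that lets brown fat mitochondria make heat, had 2357, 5435 and 1535 on rosiglitazone and 803, 632 and 894 on control chow (log2 change 1.79, SE 0.46, adjusted p = 0.732). Cox8b, a subunit of cytochrome c oxidase in muscle and brown fat, had 1028, 2179 and 1079.6 on rosiglitazone and 387, 169 and 593 on control chow (log2 change 1.93, SE 0.41, adjusted p = 0.313). The groups did not overlap at either gene, and rosiglitazone array 2 again carried the top value.

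Car3 had the highest change of all named genes. It encodes carbonic anhydrase 3, abundant in fat cells and slow muscle. Its signals were 3587, 4834 and 2433 on rosiglitazone and 502, 1254 and 742 on control chow (log2 change 2.14, SE 0.32, adjusted p = 0.0635). A second, dimmer probe set gave 1.80, with 817, 582 and 711 on rosiglitazone, array 2 being the lowest there. Without control array 2, the highest of the controls, the brighter probe set changed by 2.48 and was called (adjusted p = 0.0135). It was called as well when the spike-in class was added as a covariate. The second probe set was called under the same 2 settings and within the lower spike-in class, where 1 array stood against 1.

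Rbp7, Ces1d and Ube3al1 complete the 12 genes. Rbp7, a retinol binding protein of capillary endothelium and fat and a PPARgamma target in mouse, had 566, 449 and 308 on rosiglitazone and 91.6, 119.6 and 98.6 on control chow (log2 change 1.90, SE 0.33, adjusted p = 0.0845). Control arrays 1 and 3 were at background for Rbp7, and with an offset of 64 in place of 16 its log2 change was 1.56. Ces1d, a carboxylesterase that splits lipid esters in mouse, had 835, 541 and 919.9 on rosiglitazone and 337, 398 and 328 on control chow (log2 change 1.05, SE 0.18, adjusted p = 0.0845). Here array 2 of the drug group was the lowest of its group, unlike in Fabp4, Plin1, Cidea, Ucp1 and Cox8b. Without that array the change was 1.27 with an adjusted p of 0.0139. Ces1d lies in a family of similar genes whose transcripts may share probes, which was not tested. Ube3al1 had 653, 806 and 535 on rosiglitazone and 252, 178 and 379 on control chow (log2 change 1.30, SE 0.25, adjusted p = 0.18).

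Of these 12 genes, 6 are in the fat cell or brown fat marker lists and 7 are in the list of PPARgamma targets. At 1 probe set per gene, rosiglitazone array 2 gave the highest signal of its group in 10 of the 12, array 1 in 1 and array 3 in 1.

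**Figure D2:**
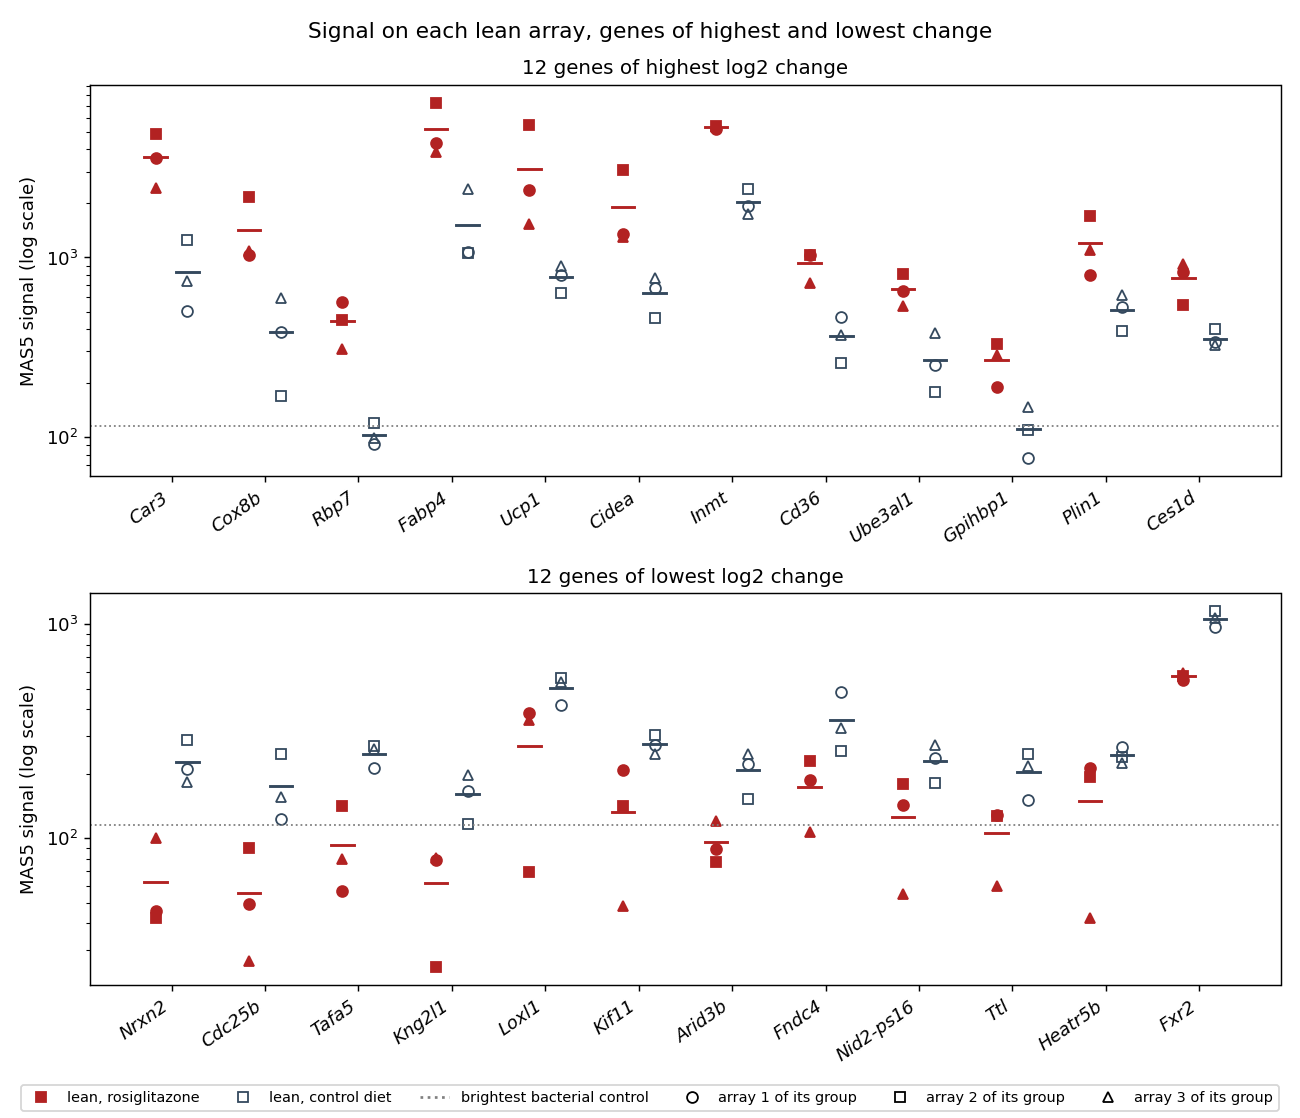
Signals of each lean array (log axis) for the 12 genes of highest and the 12 genes of lowest log2 change among those with an unadjusted p under 0.05 and no overlap, rosiglitazone rats in filled red left of control rats in open dark blue, with horizontal bars at group means and a dotted line at the brightest bacterial control, 115.7. The 3 Inmt signals on rosiglitazone coincide near 5300, the fat genes spread upward through array 2 (squares), and 6 of the 12 lowest genes have a rosiglitazone mean below the dotted line.

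The sequences before the start sites of 4 of these genes are shown because PPARgamma binds repeats of AGGTCA and the genes had the changes described above. Each is 300 bases from RefSeq (build GRCr8), 250 before to 50 after the start of the gene, read 5′ to 3′ along the gene's own strand, with TATAAA and any AGGTCA in capitals. Inmt lies at chr4:85652706-85653005 on the minus strand, Cd36 at chr4:18246332-18246631 on the plus strand, Rbp7 at chr5:165177350-165177649 on the minus strand and Ucp1 at chr19:41721372-41721671 on the minus strand.
Inmt: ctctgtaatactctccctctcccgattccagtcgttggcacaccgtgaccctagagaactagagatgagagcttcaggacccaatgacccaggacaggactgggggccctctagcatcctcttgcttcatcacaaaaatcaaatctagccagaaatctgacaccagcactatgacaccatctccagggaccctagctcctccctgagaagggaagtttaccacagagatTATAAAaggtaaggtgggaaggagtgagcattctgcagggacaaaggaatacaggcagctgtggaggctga
Cd36: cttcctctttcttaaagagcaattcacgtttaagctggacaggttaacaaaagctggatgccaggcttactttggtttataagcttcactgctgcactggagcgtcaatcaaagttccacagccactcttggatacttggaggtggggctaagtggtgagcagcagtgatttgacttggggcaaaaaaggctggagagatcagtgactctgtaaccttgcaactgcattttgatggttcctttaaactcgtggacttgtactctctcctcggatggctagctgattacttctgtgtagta
Rbp7: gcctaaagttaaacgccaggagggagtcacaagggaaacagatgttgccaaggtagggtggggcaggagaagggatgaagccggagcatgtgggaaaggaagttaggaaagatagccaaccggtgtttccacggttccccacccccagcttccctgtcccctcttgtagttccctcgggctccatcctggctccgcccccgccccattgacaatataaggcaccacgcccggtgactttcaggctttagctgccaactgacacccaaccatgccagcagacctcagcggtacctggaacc
Ucp1: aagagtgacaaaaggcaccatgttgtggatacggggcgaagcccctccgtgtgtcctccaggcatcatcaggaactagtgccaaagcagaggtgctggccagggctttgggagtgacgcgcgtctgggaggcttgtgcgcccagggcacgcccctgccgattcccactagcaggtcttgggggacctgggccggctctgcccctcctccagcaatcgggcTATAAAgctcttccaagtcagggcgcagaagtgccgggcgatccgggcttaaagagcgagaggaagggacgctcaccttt
None of the 4 windows holds AGGTCA on either strand, and those of Inmt and Ucp1 hold TATAAA on the gene's strand. Of the 12 genes of highest change, 9 had a promoter in the RefSeq table. AGGTCA, searched on both strands, occurred in 1 of the 9 (Ube3al1), against 16.2% of 33469 promoters in the table and 12.5% of the 9796 promoters of tested genes. A direct repeat of that motif with 1 base of any kind between the copies occurred in 0 of the 9 and in 18 promoters (0.054%) of the table. TATAAA occurred in 3 of the 9 (Inmt, Ucp1 and Cox8b), against 8.80% of the table and 4.54% of the promoters of tested genes. A window of this length leaves out distant enhancers, and these counts say only which letters lie in it.

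The 12 named genes of lowest change were dimmer, and 6 of them had a rosiglitazone mean at background. These were Nrxn2, Cdc25b, Tafa5, Kng2l1, Arid3b and Ttl, and the sizes of their changes depend on the offset. Nrxn2, a neurexin, which is a cell adhesion protein best known at synapses, had 45.6, 42.2 and 100.3 on rosiglitazone and 211, 288 and 182 on control chow (log2 change −1.68, SE 0.26, adjusted p = 0.0635). All 3 rosiglitazone signals of Nrxn2 were below the brightest bacterial control, and its log2 change was −2.13 within the higher and −0.77 within the lower spike-in class. Fxr2, an RNA binding protein of the fragile X family, was the brightest of the 12, with 549.7, 573 and 588 on rosiglitazone and 968, 1148 and 1066 on control chow (log2 change −0.87, SE 0.14, adjusted p = 0.0635). Its groups were tight and far apart, as those of Inmt were, in the other direction.

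Among the rest, Cdc25b, a phosphatase that lets cells enter mitosis, had 49.4, 89.6 and 26.7 on rosiglitazone and 123, 248 and 156 on control chow (log2 change −1.47, adjusted p = 0.354). Kif11, the kinesin that parts the spindle poles, had 208, 142 and 48.0 on rosiglitazone and 273, 303 and 248 on control chow (log2 change −1.14, adjusted p = 0.981), with a second probe set at −0.13, and without rosiglitazone array 3 the change was −0.63. Of the 24 tested genes of the cell cycle list, 8 had a higher mean on the drug, and the list median was −0.06. Loxl1, an enzyme that crosslinks elastin, had 385, 69.6 and 355 on rosiglitazone and 419, 559 and 537 on control chow (log2 change −1.15, adjusted p = 0.981), where array 2 of the drug group lay far below arrays 1 and 3 and without which the change was −0.43. The log2 changes of the other genes were −1.34 for Tafa5, −1.25 for Kng2l1, −0.99 for Arid3b, −0.97 for Fndc4, −0.90 for Nid2-ps16, −0.89 for Ttl (a tubulin tyrosine ligase) and −0.88 for Heatr5b, with adjusted p from 0.293 to 0.981. Second probe sets gave −0.18 for Ttl and −0.10 for Heatr5b. Without rosiglitazone array 3 the change was −0.24 for Heatr5b, −0.47 for Nid2-ps16 and −0.59 for Ttl.

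Known PPARgamma targets tended to have higher means on the drug. Of 35 genes in that list, 31 were tested, and 26 had a higher mean on rosiglitazone, where 46.7% of all genes had one. None was called (0.0095% of all genes, Inmt alone), and 11 were higher with no overlap, where 3.31% of all genes were. None was lower with no overlap, where 5.05% of all genes were. The list median was 0.22, against −0.01 over all genes. Part of the list is made of fat cell genes: the 15 targets that are also in a fat list had a median of 0.39 with 8 non-overlapping, and the 16 that are not had a median of 0.19 with 3. Those 3 were Cd36, Rbp7 and Acsl1. Acsl1, which activates long fatty acids with coenzyme A, had 3678, 4057 and 3400.2 on rosiglitazone and 2694, 2700.0 and 3339 on control chow (log2 change 0.35, adjusted p = 0.981), with 0.16 and overlap at a dimmer probe set. Angptl4, an inhibitor of lipoprotein lipase, had 380.0, 258 and 166 on rosiglitazone and 150.4, 112 and 177 on control chow (log2 change 0.75, adjusted p = 0.981), with overlap through array 3 of both groups. Within the lower spike-in class, 1 array against 1, the list median was 0.10. The list was assembled with earlier results of these data known, so its counts are a description.

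Markers of fat cells, a list that shares Cidea with the brown fat list, likewise had higher means on the drug in most cases. Of 18 tested, 15 had a higher mean, 6 were higher and 1 was lower with no overlap (3.31% and 5.05% of all genes), 0 were called, and the median was 0.30. The signals summed over the 19 marker genes on the array were 29402, 41179 and 27384 on rosiglitazone and 21454, 19166 and 25036 on control chow, so every rat on the drug was above every control rat. Bright members weigh most in such a sum, among them Fabp4 (means 5154 and 1514) and Car3 (3618 and 833), both picked above for their change. The mean log2 over the 19 genes was 9.85, 10.26 and 9.89 on rosiglitazone and 9.55, 9.41 and 9.72 on control chow. Adipoq, which encodes the hormone adiponectin, had 1021, 1110.5 and 710.5 on rosiglitazone and 645, 589 and 670.2 on control chow (log2 change 0.54, SE 0.18, adjusted p = 0.981). The gene of another fat cell hormone, Lep, was below the filter on dim probe sets. The 1 marker lower with no overlap was Nnat, at −0.58. The median was 0.13 without control array 2 and 0.17 without rosiglitazone array 2, and it was 0.09 within the lower spike-in class. More fat tissue in a kidney sample and more transcript per fat cell cannot be told apart in whole tissue.

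Brown fat markers numbered 14 tested, of which 12 had a higher mean, 6 were higher with no overlap (3.31% of all genes), 0 were lower with no overlap (5.05%) and 0 were called, with a median of 0.26. Their summed signals over 16 genes were 29752, 37590 and 26586 on rosiglitazone against 25134, 22951 and 25764 on control chow. The 6 non-overlapping genes were Ucp1, Cox8b, Cidea, Cpt1b, S100b and Fabp3. Cpt1b, the muscle and brown fat form of the enzyme that lets fatty acids into mitochondria, had 937, 1600.0 and 1068 on rosiglitazone and 689, 719.6 and 760.2 on control chow (log2 change 0.68, adjusted p = 0.653). Fabp3, a fatty acid binding protein that kidney also makes, had 5950.2, 5979 and 5545 on rosiglitazone against 4749, 4695 and 5064 on control chow (log2 change 0.27, adjusted p = 0.981). The median was 0.16 without control array 2. Ppargc1a, the coactivator that drives brown fat mitochondria, had a log2 change of −0.06.

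The fat markers varied more than Inmt between the rats on the drug. Among the 3 rosiglitazone arrays the summed signal of the fat cell list varied 1.50-fold and that of the brown fat list 1.41-fold, while Inmt varied 1.04-fold. The brown fat sum includes Fabp3, which kidney also makes, and its member Ucp1 alone ran from 1535 to 5435 on these arrays. Control array 3, with the highest fat cell sum of the controls, had the lowest Inmt signal. Rosiglitazone array 2, with the highest fat cell sum of the drug group, had the highest Inmt signal. Red blood cell genes had a lower mean on the drug. Summed over 7 genes they gave 6656, 9830 and 5567 on rosiglitazone and 9059, 13884 and 10010 on control chow, with overlap. Hbb, a beta globin gene of a family whose members may share probes, had 3066, 5172 and 2094 on rosiglitazone and 4603, 9121 and 5458 on control chow (log2 change −0.93, adjusted p = 0.981). Of the skeletal muscle markers, 5 of 17 were bright enough to be tested, and apart from Car3 none was non-overlapping. Over all genes 3.31% were higher and 5.05% lower with no overlap. Proximal tubule markers summed to 212890, 201981 and 182970 on rosiglitazone against 212623, 201814 and 174076 on control chow. What part fat tissue or blood in the samples had in the changes of fat genes or of Inmt was not tested.

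**Figure D3:**
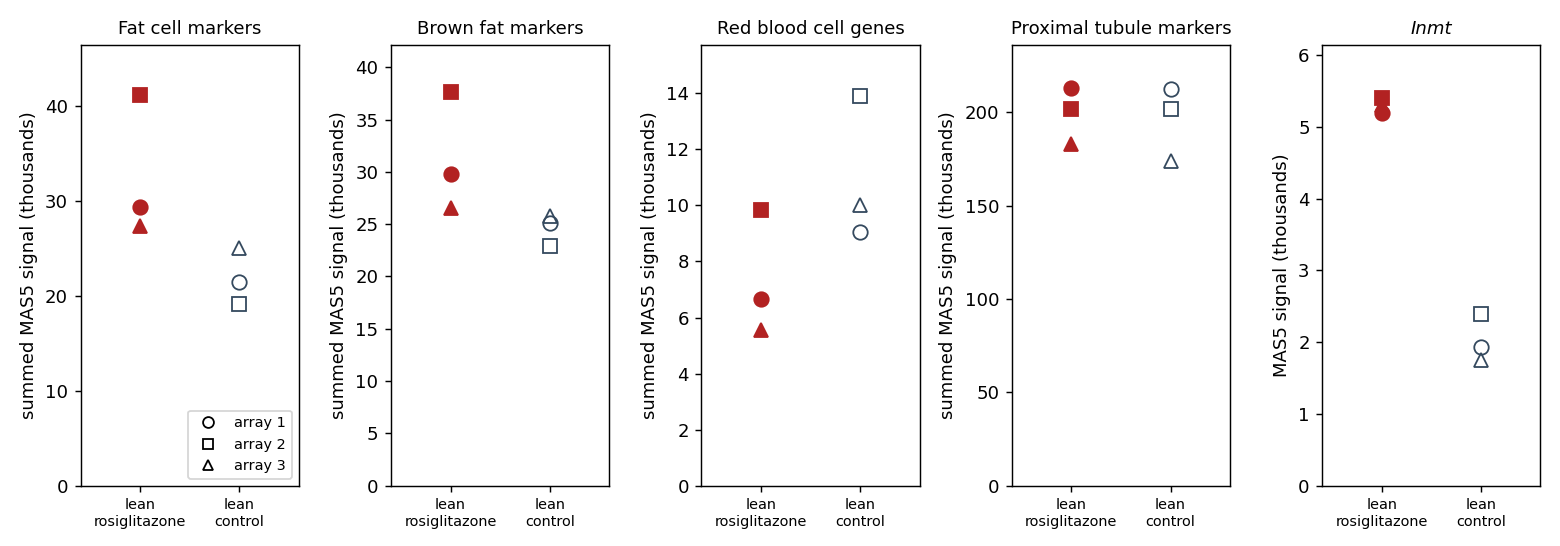
Summed MAS5 signal (axis labels divided by 1000, axes from 0) of 4 marker lists and the signal of Inmt on each lean array, rosiglitazone rats in filled red at left and control rats in open dark blue at right. Fat cell and brown fat sums are highest on rosiglitazone array 2 (41179 and 37590), red blood cell sums overlap, proximal tubule sums coincide, and the 3 Inmt signals on rosiglitazone lie between 5189 and 5403.

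Genes that burn fatty acids showed small shifts. Of 30 tested genes of fatty acid oxidation, 24 had a higher mean on the drug, 2 were higher with no overlap, against 3.31% of all genes, 0 were called, and the median was 0.08. The 2 were Cpt1b and Acadl, the long-chain acyl-CoA dehydrogenase, at 4399, 4641 and 4545 on rosiglitazone and 3622, 3749 and 3992 on control chow (log2 change 0.26, adjusted p = 0.981). Ehhadh, of peroxisomal oxidation, had 0.29 and Hadha, of the mitochondrial trifunctional protein, 0.16, both with overlap. Cpt1a, the liver and kidney form of the entry enzyme, had −0.15, and 0.15 at a dimmer probe set. The median was 0.02 without rosiglitazone array 2, 0.05 without control array 2, 0.15 without control array 1 and 0.14 without rosiglitazone array 3, and 0.01 with the Gapdh ratio as a covariate.

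Fatty acid synthesis went in no single direction, with 12 of 21 tested genes higher in the mean, 0 higher and 2 lower with no overlap (5.05% of all genes were lower), and a median of 0.07, which was −0.06 without control array 2, −0.01 without rosiglitazone array 3 and −0.18 within the lower spike-in class. Scd2, a stearoyl-CoA desaturase, had 5821, 4315 and 5149 on rosiglitazone and 3304, 2758 and 4369 on control chow (log2 change 0.56, adjusted p = 0.981), overlapping through control array 3, while a dimmer probe set gave 0.73 with no overlap. Fasn, fatty acid synthase, had 1230.1, 1829 and 1469.9 on rosiglitazone and 2266, 1416 and 3578 on control chow (log2 change −0.59, adjusted p = 0.981), with −0.93 without control array 2 and −0.26 without control array 3. Elovl6, which lengthens palmitate, had 298, 381 and 394 on rosiglitazone against 604, 419.6 and 610.2 on control chow, with no overlap (log2 change −0.58, adjusted p = 0.981) and a second probe set at −0.12. Scd, the other desaturase measured, varied from 149.5 to 4063.5 among the control rats alone, which leaves its log2 change of −1.41 with an SE of 0.88 and a range of −2.70 to −0.38 without single control arrays.

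The receptor of the drug and its partners were measured too. Pparg had 231, 317 and 197 on rosiglitazone and 166, 179 and 223 on control chow (log2 change 0.35, SE 0.22, adjusted p = 0.981). Rxrg, a retinoid X receptor, had 707, 597 and 803 on rosiglitazone and 469.7, 494 and 474 on control chow, with no overlap (log2 change 0.53, adjusted p = 0.981), and Ppard had a log2 change of 0.36. Ppara and Rxra were not bright enough to be tested. Of 18 tested retinoid genes, 12 had a higher mean (46.7% of all genes) and 2 were higher with no overlap (3.31% of all genes). The 2 were Rxrg and Rbp7, the latter picked above for its change. The list median was 0.08, with 0.01 without rosiglitazone array 3, 0.02 without control array 3 and 0.17 without control array 1. Rbp4, the retinol carrier of blood, had 1958, 3054 and 1623 on rosiglitazone and 3468, 3365 and 2515 on control chow (log2 change −0.53, adjusted p = 0.981).

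Distal nephron transport of sodium and water, the process tied to fluid retention under this class of drug, was described by 27 tested genes. Of these 18 had a higher mean on the drug, 2 were higher and 1 was lower with no overlap, shares near those of all genes (3.31% and 5.05%), 0 were called, and the median was 0.04. All 27 had a 95% interval within 2-fold either way, as had 10057 of the 10524 genes tested. The epithelial sodium channel subunits Scnn1a, Scnn1b and Scnn1g had log2 changes of 0.04, 0.31 and −0.02. For Scnn1b, the largest of the 3, the signals were 1673, 1620.2 and 1799.9 on rosiglitazone and 1637, 1043 and 1495 on control chow, overlapping through control array 1 (95% interval 0.02 to 0.60, adjusted p = 0.981), and without control array 2 the change was 0.12. Sgk1, the kinase that holds the channel at the membrane, had 3774, 3301 and 2547 on rosiglitazone and 4584, 3305 and 3722 on control chow (log2 change −0.28, 95% interval −0.58 to 0.03, adjusted p = 0.981), or −0.12 without rosiglitazone array 3 and −0.15 without control array 1.

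Nr3c2, the mineralocorticoid receptor, had 1029, 1030.0 and 1012 on rosiglitazone and 900.2, 866 and 917 on control chow (log2 change 0.19, adjusted p = 0.981), and Avpr2, the vasopressin receptor of the collecting duct, had 797, 893 and 897 on rosiglitazone against 687, 797 and 777 on control chow (log2 change 0.19, adjusted p = 0.981), with 0.58 and no overlap at a dimmer probe set. These were the 2 that were higher with no overlap. The 1 gene lower with no overlap was Fxyd4, a subunit that tunes the sodium pump in the collecting duct, with 1818, 2190.3 and 1831 on rosiglitazone and 2202, 2209 and 3041 on control chow (log2 change −0.34, adjusted p = 0.981), or −0.18 without control array 3. Aqp2 had a log2 change of −0.11 (95% interval −0.33 to 0.12). The median lay between −0.01, without rosiglitazone array 2, and 0.03 when single arrays were left out, and was 0.01 without control array 2.

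Genes of matrix and fibrosis had lower means on the drug in most cases. Of 29 tested, 7 had a higher mean, 0 were higher and 5 were lower with no overlap (3.31% and 5.05% of all genes), 0 were called, and the median was −0.09. The 5 were Ccn2, Col1a1, Tgfb1, Mmp2 and Col4a2. Ccn2, connective tissue growth factor, had 2209.7, 1938 and 1686 on rosiglitazone and 2923, 2348 and 2658 on control chow (log2 change −0.44, SE 0.13, adjusted p = 0.886). Col1a1, the main chain of type I collagen, had 429, 273 and 253 on rosiglitazone and 459, 540.0 and 447 on control chow (log2 change −0.61, adjusted p = 0.981), with −0.31 and overlap at a dimmer probe set. Tgfb1, the growth factor that drives matrix genes, had 182, 189 and 197 on rosiglitazone against 316, 206 and 309 on control chow (log2 change −0.49, adjusted p = 0.981). The median was −0.19 without rosiglitazone array 1. Timp1, an inhibitor of matrix proteases, had −0.97 with its array 3 of the drug group at background, and with overlap, and −0.34 without that array.

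In the angiotensin system, 9 genes were tested, 5 had a higher mean, and the median was 0.03, with −0.09 without control array 3 or without rosiglitazone array 1. Ace, angiotensin converting enzyme, had 479, 502 and 456 on rosiglitazone and 648, 572 and 594 on control chow, with no overlap (log2 change −0.33, SE 0.13, adjusted p = 0.981). Agt, angiotensinogen, had 1366, 1364 and 1358 on rosiglitazone and 1359.9, 1119 and 1241 on control chow (log2 change 0.14, adjusted p = 0.981).

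Endothelial markers were mixed, with 9 of 16 tested genes higher in the mean, 2 higher and 2 lower with no overlap (3.31% and 5.05% of all genes), and a median of 0.05, which was −0.05 without control array 2 and −0.02 without rosiglitazone array 1. The 2 higher were Rbp7 and Gpihbp1, described above, which capillaries of fat also carry. The 2 lower were Icam2 and Eng, and Vwf, the clotting factor that endothelium stores, had 404, 563 and 394 on rosiglitazone and 732, 678 and 533 on control chow with overlap (log2 change −0.50, adjusted p = 0.981). Pecam1, present in all endothelium, had 0.21. Of 33 tested proximal tubule markers, 19 had a higher mean, 1 was higher with no overlap (Cyp27b1, which makes active vitamin D, at 0.45) and the median was 0.02, or −0.05 without control array 3 or rosiglitazone array 1. Of 11 intercalated cell markers, 9 had a higher mean and 1, Car2, the cytosolic carbonic anhydrase 2, was higher with no overlap (0.24, adjusted p = 0.981), with a second probe set at 0.09. Ptpn1, a phosphatase that turns off the insulin receptor, had 366, 429 and 425 on rosiglitazone and 546, 562 and 607 on control chow, with no overlap (log2 change −0.48, adjusted p = 0.855), and was the 1 non-overlapping gene of 29 in the list of glucose metabolism and insulin signalling; its second probe set gave 0.19.

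**Figure D4:**
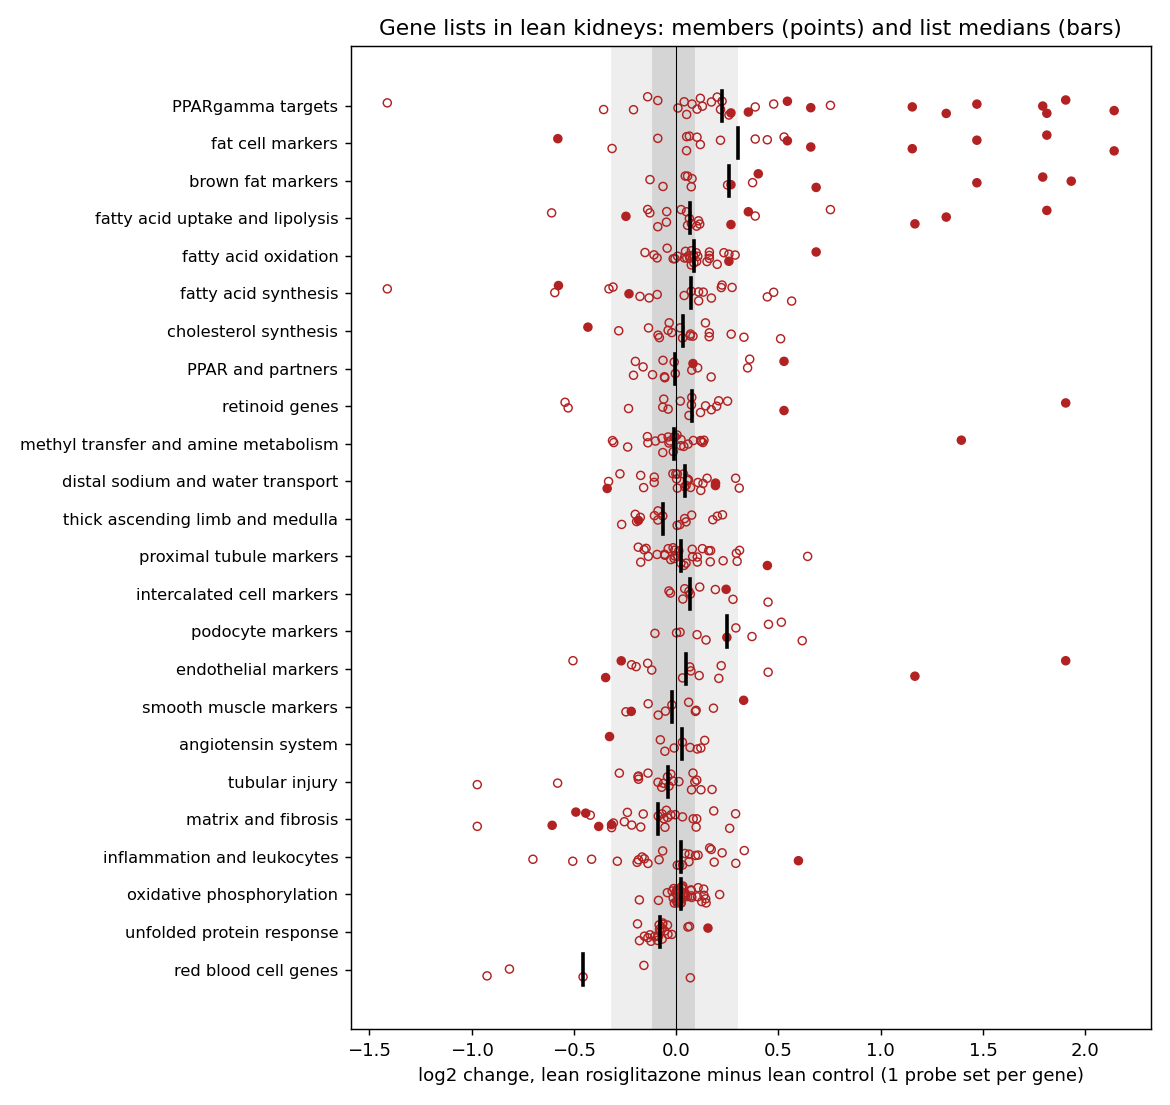
Log2 change (lean rosiglitazone minus lean control, horizontal axis) of each tested member of 24 gene lists, 1 probe set per gene, filled where the lean groups do not overlap, with black bars at list medians and grey bands from the lower to the upper quartile and from the 5th to the 95th percentile of all genes. Filled points beyond 1 lie in the PPARgamma target, fat cell, brown fat, fatty acid uptake, retinoid, methyl transfer and endothelial lists. Medians are 0.22 for PPARgamma targets, 0.30 for fat cell, 0.26 for brown fat and 0.25 for podocyte markers. Skeletal muscle markers, with 5 tested genes including Car3 and a median of 0.29, are among the lists not drawn.

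The obese rats offered a second set of 6 arrays, none of them in the lean group means, on which the same genes could be looked at. These arrays were not fully separate from the choice of genes. They entered the filter on dim probe sets and the estimate of spread behind the lean p. Of the 12 genes of highest change in lean rats, 10 had a higher mean on rosiglitazone in obese rats, 6 were higher with no overlap (background 5.56%), and 2 were called there (background 0.0698%, 13 probe sets). The 2 called in obese rats were Fabp4 (log2 change 3.03, SE 0.37, adjusted p = 0.0185) and Rbp7 (log2 change 2.26, SE 0.33, adjusted p = 0.022). Rbp7 signals there were 326, 185 and 246 on rosiglitazone and 45.1, 16.5 and 66.7 on control chow, all 3 control signals at background, so the size of its change depends on the offset. Fabp4 signals there were 4111, 2862 and 2776 on rosiglitazone and 216, 502 and 492 on control chow. Cd36 had a log2 change of 1.08 in obese rats (adjusted p = 0.0997), against 1.32 in lean rats (difference −0.24, SE 0.30, unadjusted p = 0.439). Ucp1 signals in obese rats were 79.1, 132 and 219.8 on rosiglitazone and 32.8, 6.87 and 4.11 on control chow, with the 3 control arrays and rosiglitazone array 1 at background, so no size of change is given for it there.

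Of all probe sets, Inmt had the smallest p for a difference in effect between lean and obese rats. In obese rats its signals were 6747, 7573 and 7049 on rosiglitazone and 6672, 5621 and 5694 on control chow, a log2 change of 0.25 (SE 0.11, adjusted p = 0.975). The obese rats on control chow were thus above the lean rats on the drug, at 5189 to 5403. The difference of the 2 effects, obese minus lean, was −1.14 (SE 0.15, adjusted p = 0.0546), just short of the threshold. No probe set passed that test (limma, 0 called and 802, or 4.31%, at an unadjusted p under 0.05). With the filter at the 60th percentile or with quantile normalization, 1 passed.

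Several other genes of high change in lean rats had smaller log2 changes in obese rats. Car3 had 749, 760.3 and 757 on rosiglitazone and 871, 418 and 624 on control chow in obese rats (log2 change 0.30), where the difference of effects was −1.84 (unadjusted p = 0.00155, adjusted p = 0.832). Ces1d had −0.27 in obese rats, with a difference of −1.32 (unadjusted p = 0.00013, adjusted p = 0.344), and Ube3al1 had −0.17. For 8 of the 12 genes the difference of effects had an unadjusted p under 0.05, in a set picked for its lean change, and none passed after adjustment. In 7 of these 8 the log2 change was smaller or opposite in obese rats, and in Fabp4 it was larger (1.22, unadjusted p = 0.0359). Cox8b is among the 7, and all its obese signals were at background, so no smaller effect is shown for it. Fxr2, of the lowest genes, had 947, 931 and 1235 on rosiglitazone and 1168, 825 and 946 on control chow in obese rats (log2 change 0.08). Of the 12 genes of lowest change in lean rats, 9 had a lower mean in obese rats, 2 were lower with no overlap (background 6.34%) and 0 were called.

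**Figure D5:**
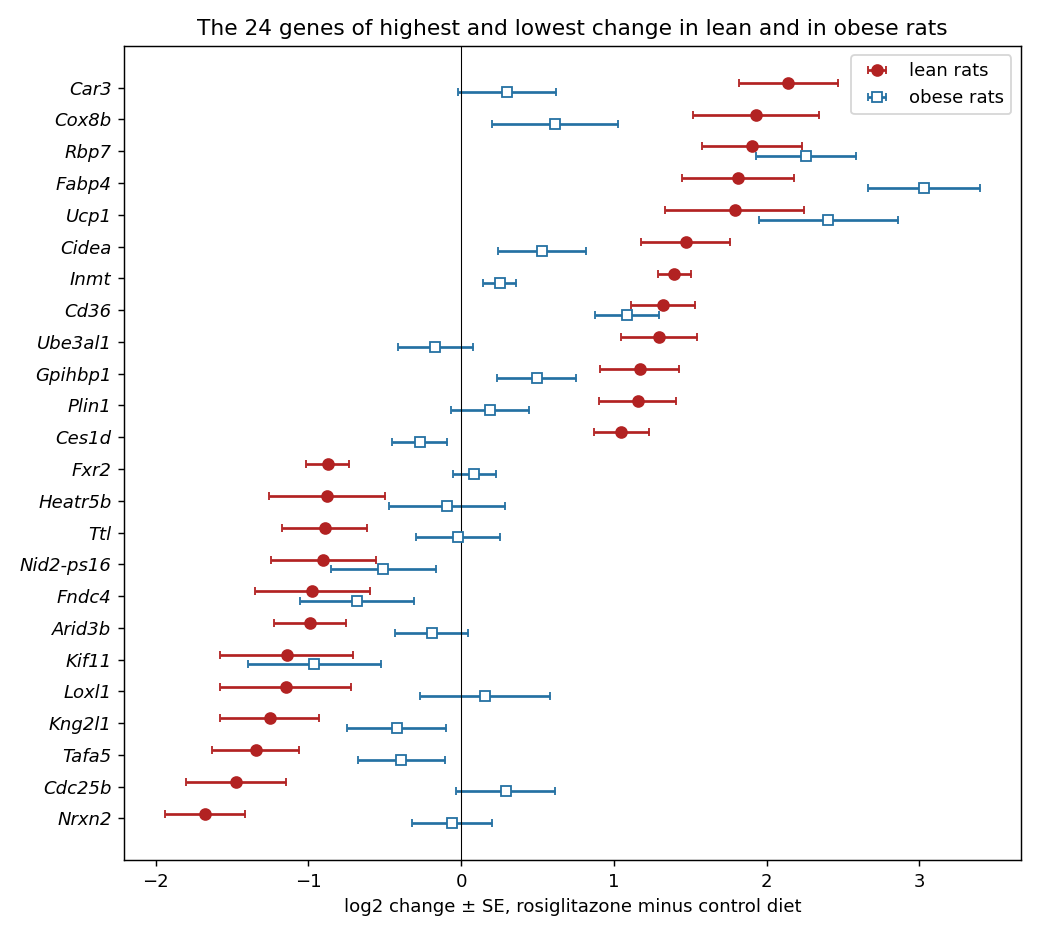
Log2 change on rosiglitazone (± SE, n = 3 against 3) of the 24 genes of highest and lowest change in lean rats (red circles) and of the same genes in obese rats (open blue squares). Rbp7, Fabp4 and Cd36 lie to the right of 1 in both body types, as does Ucp1, whose obese control signals, like those of Rbp7 and Cox8b, were at background and fix no size, while Inmt, Car3, Ces1d and Ube3al1 lie near 0 in obese rats.

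Some genes of the lists had opposite signs in lean and obese rats. Fasn, at −0.59 in lean rats (−0.26 without control array 3), rose by 1.66 in obese rats (adjusted p = 0.0486), and the difference had an unadjusted p of 5e-05 (adjusted p = 0.235). Ace, at −0.33 in lean rats, rose by 0.76 in obese rats (adjusted p = 0.0486; unadjusted p = 2.8e-05 and adjusted p = 0.173 for the difference). Agt had −0.65 in obese rats (adjusted p = 0.0538), and Ccn2 had 0.40 (adjusted p = 0.668). Across all probe sets with an unadjusted p under 0.05 and no overlap in lean rats, 140 of the 309 higher ones (45.3%) were higher in obese rats too, where 49.6% of all probe sets were, and 163 of the 280 lower ones (58.2%) were lower.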

How the data were processed

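RNA of 12 kidneys was measured on 1 Affymetrix Rat Genome 230 2.0 array each, with 3 rats in each of 4 groups set by the sample titles. The deposited values are linear signal intensity values made by the authors with MAS5, per the submitters' processing notes, which give no version. The scaling target was not given in the sources used here. After trimming 2% of probe sets at each end, every array's mean was near 500, so arrays were used as scaled, and a scaling of this kind sets overall shifts in RNA to nil. Probe sets were named from the platform annotation: 20826 of 31042 carry 1 gene symbol, 436 several and 9780 are unnamed here.

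Signals were turned to log2 after adding 16. Probe sets with a mean log2 below the 40th percentile, 7.32, were left out. The 4 group means were fitted with limma 3.58.1 (eBayes with trend and robust, statmod 1.5.0, R 4.3.3), with 8 residual degrees of freedom and Benjamini-Hochberg adjustment over 18625 probe sets per contrast. An exact permutation test of 3 against 3 arrays cannot go below p = 0.1, so none is given. The fit was also run on simulated data with independent normal noise at each probe set. Such data hold no spike-in class, shared replicate number or outlying array, so they do not vouch for the calls made here. The number of arrays limits the precision.

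Gene lists, 36 in number, used the brightest probe set per gene. Named genes were all called ones, then, since fewer than 20 passed, the 12 highest and 12 lowest log2 changes among probe sets with 1 symbol (predicted genes left out, 1 probe set per gene), an unadjusted p under 0.05, no overlap and the higher mean at or above 100, up to 4 genes of smallest p per list, and a set of 68 genes of interest, of which 8 did not pass the filter. Other list members are named where they make up a printed count. The members, lists and rules were chosen with earlier results of these data known. Alternatives covered the offset, filter, scaling, moderation, samples fitted, replicate block, spike-in class, RNA integrity, array weights and single arrays.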

Additional observations from a re-analysis of the deposited data

How the results depend on the processing

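The count of called probe sets in lean rats, 1 in the analysis reported, was also 1 with an offset of 1 or 64, without the filter, with plain eBayes, with the lean arrays alone and with the Gapdh ratio as a covariate. It was 2 with the filter at the 60th percentile, 2 after quantile normalization, 3 after median centring, 2 with array weights, 4 with a covariate for spike-in class, 0 within the higher class and 23 within the lower class, a comparison of 1 array with 1 whose spread is that of the obese groups. Without 1 lean array it ranged from 2 to 4. The log2 change of Inmt was 1.29 within the higher class and was not called there. The count for the difference between body types, 0, was 1 with the filter at the 60th percentile and 1 after quantile normalization; the cause was not tested. With the replicate number as a block the count was 2, Inmt and an unnamed probe set. The labels do not say whether equal numbers mark paired rats, and the fit reported took them as unpaired. Correlations between the lean groups were taken after the group mean of each probe set was subtracted, so they compare deviations within groups. Same-numbered lean arrays gave 0.0998, 0.132 and 0.183, and the deviations of every lean array correlated best with those of its own number in the other group. Same-numbered lean arrays also shared a spike-in class. Under the block 1163 probe sets had an unadjusted limma p under 0.05, against 893 in the fit reported. Nrxn2 was called after quantile normalization, median centring, with array weights and without rosiglitazone array 3. The median of the oxidative phosphorylation list, 0.03 with 35 of 42 genes higher, turned to −0.01 with 17 higher after median centring and to −0.02 with 15 higher without rosiglitazone array 2. Changes of some named genes that were not called changed sign. Within the lower class the log2 change was −0.08 for Angptl4, 1.05 for Dbp, −0.05 for Fos, 0.40 for Havcr1, −0.10 for Nphs1, −0.16 for Pparg, 0.18 for Ppargc1a and −0.18 for Ptpro. Within the higher class it was 0.14 for Scd, 0.04 for Scnn1g and −0.07 for Aqp1. Aqp1, at 0.00 in the analysis reported, also had −0.03 after median centring, −0.01 after quantile normalization, −0.02 with the Gapdh ratio and 0.00 with array weights, which gave −0.02 for Scnn1a. Without 1 lean array the range was −0.09 to 0.08 for Aqp1, −0.44 to 0.33 for Dbp, −0.59 to 1.29 for Fos, −0.05 to 0.86 for Nphs1, −0.17 to 0.06 for Ppargc1a, −0.06 to 0.20 for Scnn1a, −0.13 to 0.10 for Scnn1g and −0.79 to 1.33 for Slc5a2. Further changes that were not called moved by over 1.5 times without 1 array, among them Angptl4 to 0.48, Ppard to 0.18 and Aqp2 to −0.02 without rosiglitazone 1, Pparg to 0.17 and Sel1l to 0.10 without rosiglitazone 2, Pecam1 to 0.06, Rbp4 to −0.33, Cyp27b1 to 0.24 and Gnmt to −0.10 without rosiglitazone 3, Agt to 0.07 without control 2, and Ptpro to 1.11 without control 3.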

Other observations

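Podocyte markers, genes of the glomerular filter cells, had higher means on rosiglitazone in 10 of 11 tested genes of lean rats, with 1, Foxc1, higher with no overlap (3.31% of all genes) and a median of 0.25. Ptpro had 476, 367 and 510.3 on rosiglitazone and 199, 199 and 580.3 on control chow (log2 change 0.62, adjusted p = 0.981), and Nphs1, nephrin, had 213, 136 and 232 on rosiglitazone against 154, 58.8 and 249 on control chow (log2 change 0.45). In both genes control array 2 lay at or near the bottom and control array 3 at the top. Without control array 2, 6 of 11 were higher and the median was 0.08, and within the lower spike-in class it was −0.10. The unfolded protein response went the other way, with 3 of 24 genes higher in the mean, 1 higher with no overlap (Sel1l, at 0.16) and a median of −0.08. It lay between −0.15, without rosiglitazone array 2, and −0.03, without rosiglitazone array 3, and was −0.14 without control array 3 and −0.04 without control array 2 or rosiglitazone array 1.

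Other groups had few genes whose lean groups did not overlap. Among 26 tested genes of inflammation and leukocytes, 15 had a higher mean and 1, the chemokine Ccl2, was higher with no overlap. Among 19 genes of cholesterol synthesis, 11 had a higher mean and 1, Hsd17b7, was lower with no overlap. Among 30 glutathione and antioxidant genes, 12 had a higher mean and 1, Prdx3, was higher with no overlap. In the 16 clock genes 9 had a higher mean and 0 were non-overlapping. None of these was called, and single non-overlapping genes in lists of this size are near the shares over all genes, 3.31% higher and 5.05% lower. A second probe set of Hsd17b7 gave −0.02.

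Some genes varied more within a group than between the groups. Fos, an immediate early gene, had 4666, 2762 and 416 on rosiglitazone and 1578, 4500.2 and 431 on control chow, with array 3 lowest in each group. Slc5a2, the glucose transporter SGLT2 of the proximal tubule, had 57.6, 53.8 and 667 on rosiglitazone and 36.5, 54.0 and 502 on control chow, so it was at background on arrays 1 and 2 of each group, which are those of the higher spike-in class, and bright on array 3. Dbp, a clock output gene, had 523, 1250.4 and 1534 on rosiglitazone and 1136, 1601 and 734 on control chow. Havcr1, the injury marker KIM-1, had 36.1, 145 and 133 on rosiglitazone and 145, 214 and 96.6 on control chow (log2 change −0.58, adjusted p = 0.994), or −0.06 without rosiglitazone array 1. Among the tubular injury genes 7 of 21 had a higher mean and 0 were non-overlapping, where 3.31% of all genes were higher and 5.05% lower with no overlap.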
